A study of Mus musculus with 6 samples.

Results

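The respiratory chain assembly factors are the proteins that build complexes I to V of the inner mitochondrial membrane without staying in the finished enzymes. The 43 factors described here were taken by symbol from the 53110 genes of the deposited table, and they comprised 13 factors of complex I, 4 of complex II, 6 of complex III, 17 of complex IV and 3 of complex V. They were compared between wild-type (WT) neural stem cells (NSCs) and NSCs heterozygous for Setd5 (Setd5+/-), which encodes a SET-domain chromatin protein, in RNA-seq of 3 samples per genotype. Both groups were primary NSCs from the mouse embryonic cortex, grown attached to Matrigel with bFGF and EGF in an incubator at 21% O2. The mutation had been introduced with CRISPR-Cas9, and the 3 columns used as Setd5+/- all name 1 clone, A3, which the study's text does not mention. Those columns do not state the genotype and were matched to the Setd5+/- labels by their sample number and the study's own copy of the table.

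Complexes I, III and IV pass electrons to oxygen and pump protons, complex II joins the chain to the citric acid cycle, and complex V uses the proton gradient to make ATP. Their subunits are encoded in both the nucleus and mitochondrial DNA, apart from those of complex II, which are all nuclear. Assembly factors hold unfinished modules together, insert iron-sulfur clusters, flavin, heme and copper, and bring newly made subunits into the membrane. Inherited loss of many of these factors causes mitochondrial disease, in which the brain is often affected.

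The 3 samples of each genotype differed by no more than random sampling of read pairs. Over all genes tested, the chi-square per degree of freedom between 2 samples of a genotype lay between 0.956 and 0.98 when read pairs were taken as the unit, where 1 is the value of pure sampling. The column names gave 1 index and 1 lane per genotype and consecutive file numbers. Each genotype was therefore counted as 1 sample (n = 1), no p-value was computed, and genotype, clone, library and lane cannot be told apart. Depth was 9995980 to 10004948 reads on genes in the WT samples and 7143309 to 7146147 in the Setd5+/- samples. Setd5 itself had 2498 to 2780 normalized counts in WT and 1990 to 2151 in Setd5+/-, or 77.2% of the WT level. These reads cover the whole gene, so they do not check the edited part of the allele. Cell type markers differed between the libraries in both directions within most lists. Of 10 neural stem cell markers, 2 were called lower (Fabp7 at a log2 fold change of -1.65 and Hes1 at -1.09) and 2 higher (Notch1 at 1.61 and Vim at 0.60), with summed levels of 57276 to 57691 normalized counts in WT and 41972 to 42390 in Setd5+/-. Of 5 tested neuronal markers (of 8), Syt1 (-3.46), Dcx (-3.23) and Snap25 (-1.76) were called lower, Tubb3 had -0.36 and Map2 had 0.32. The summed level of the neuronal list, 10245 to 10609 in WT and 12476 to 12594 in Setd5+/-, was nearly all Map2, and Stmn2 and Neurod1 had at most 3 reads in each genotype. Of 6 astrocyte markers, Gfap (3.91), Aqp4 (1.69) and S100b (1.12) were called higher and Aldh1l1 (-1.36) lower, with sums of 23322 to 23635 and 23723 to 24205 that were mostly Slc1a3 (0.01). Of 6 tested oligodendrocyte markers (of 7), Mbp (-2.39), Olig1 (-0.90) and Olig2 (-0.81) were called lower and Cspg4 (0.91) higher, with sums of 40717 to 41490 and 23685 to 24530. All 6 mesenchymal and 4 of 5 microglial markers were under the filter on low counts. The part of these differences in the values of the factors was not tested.

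Transcripts of the assembly factors were lower in Setd5+/- NSCs for most members, and the size of the difference varied with the complex that each factor serves. A factor was called lower or higher when its level differed by at least 1.5-fold and its 95% counting interval, which covers counting error only, left out 0 on the log2 scale. Of the 42 factors that passed the filter (a mean of at least 10 normalized counts), 10 were called lower (23.8%), against 14.7% of the 16266 genes tested. Only Ndufaf3 was called higher (2.38% of the factors), against 18.5% of all genes tested. The factors called lower were Ecsit, Ndufaf8, Ndufaf2, Ndufaf4 and Foxred1 of complex I, Sdhaf1 of complex II, and Coa6, Sco1, Coa3 and Cox18 of complex IV. The remaining 31 were not called. In bulk RNA, fewer cells of a type and less RNA per cell cannot be told apart. The median log2 fold change of the factors was -0.30, while that of all genes tested was -0.02. Intervals lay wholly below 0 in 23 factors (54.8%), against 32.7% of all genes, and wholly above 0 in 4 factors (9.52%), against 32.1%. The genotypes did not overlap in 25 factors, with all 3 Setd5+/- samples lower in 22, against 32.9% of all genes tested, and higher in 3, against 32.4%. This separation depends on the difference between the libraries and on counting depth. Since the samples of a genotype behave as parts of 1 library, it says nothing of the spread between cultures or clones.

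**Figure D1:**
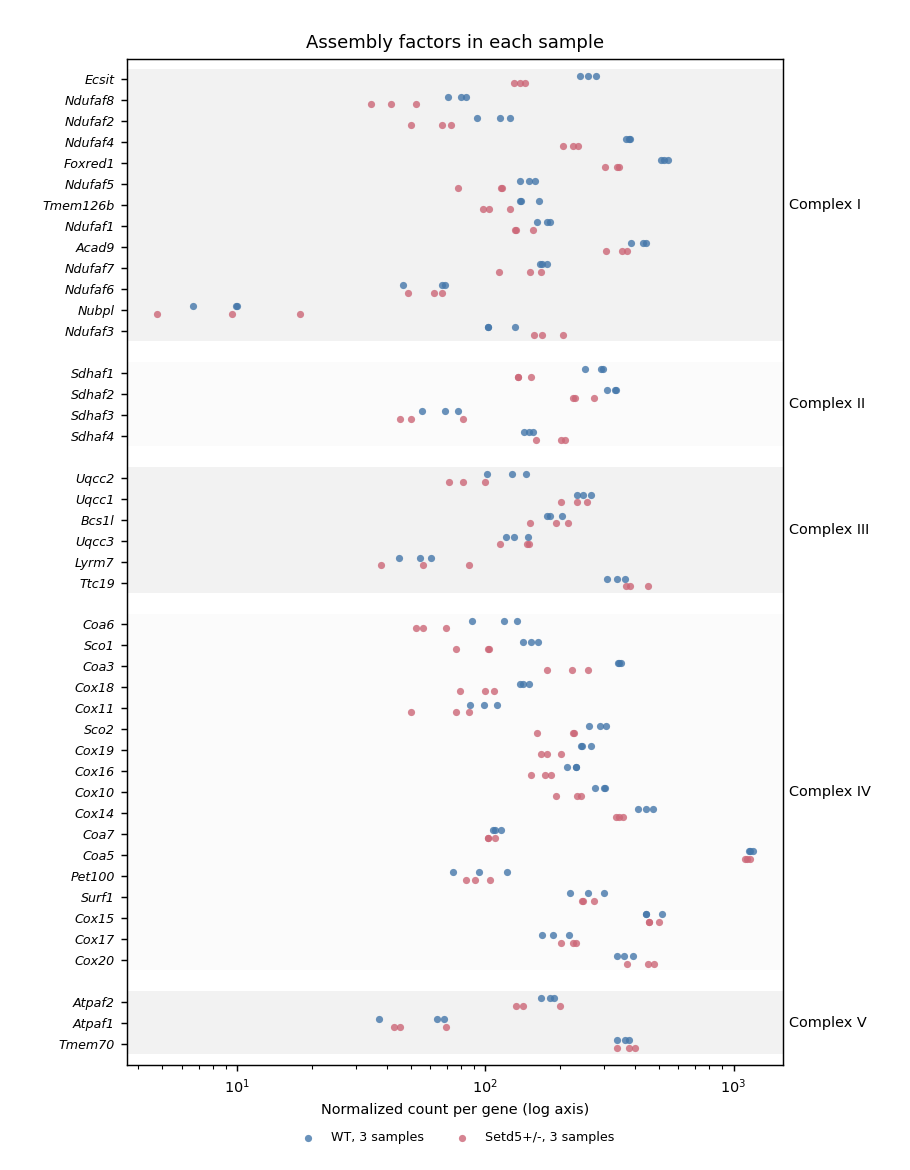
Normalized count (log axis) of each of the 43 assembly factors in the 3 WT samples (blue) and the 3 Setd5+/- samples (red), grouped by complex and ordered by fold change within it. In complex I the red points lie left of the blue ones for most rows, with Ndufaf3 at the foot of that group on the other side, while in complexes III and V the colours mix in most rows.

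By complex, the median log2 fold change was -0.49 over 12 factors of complex I, -0.33 over 4 of complex II, 0.01 over 6 of complex III, -0.40 over 17 of complex IV and -0.09 over 3 of complex V. Factors called lower were 5 of 12 in complex I (41.7%), 1 of 4 in complex II (25%) and 4 of 17 in complex IV (23.5%). None of the 6 factors of complex III and the 3 of complex V was called lower. Over all genes tested the share called lower was 14.7%. The groups of complexes II, III, IV and V are too small for their counts to be told from it. With 1 sample per genotype these differences between complexes were not tested.

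**Figure D2:**
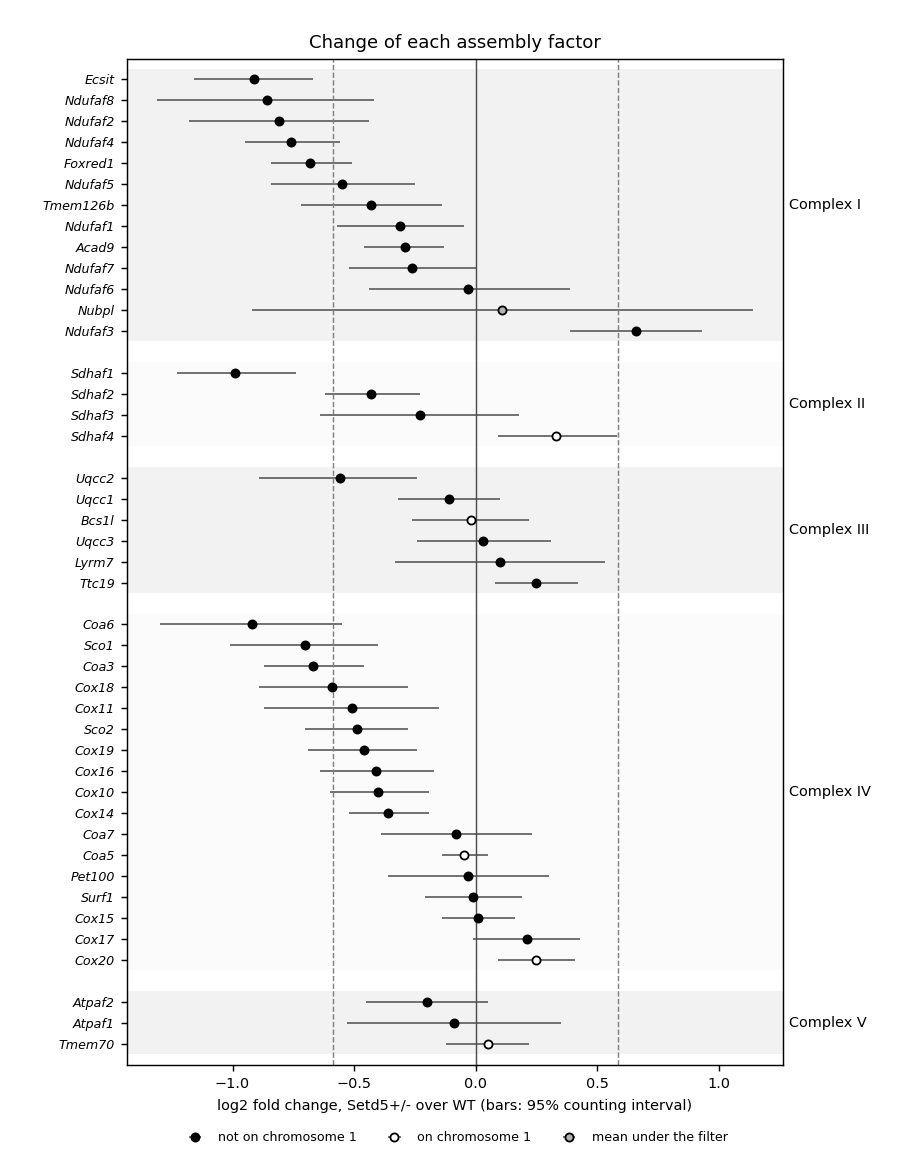
Log2 fold change (Setd5+/- over WT) of each assembly factor with its 95% counting interval, grouped by complex. Dashed lines mark 1.5-fold, open circles mark the 5 factors encoded on chromosome 1, and the grey circle is Nubpl, which was under the filter. Sdhaf1 lies farthest to the left at -0.99, and Ndufaf3 is the only factor right of the upper dashed line, at 0.66.

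Among the factors of complex I, the 4 that belong to the mitochondrial complex I intermediate assembly (MCIA) complex, which builds the membrane arm, had intervals below 0. Ecsit, an adaptor protein of MCIA (chr9:22072246-22085438, minus strand, GRCm38), had 259.6, 279.6 and 240.2 normalized counts in WT and 129.9, 138.1 and 144.1 in Setd5+/-. Every Setd5+/- value was below every WT value, and the log2 fold change was -0.91 (interval -1.16 to -0.67), or 52.9% of the WT level. The other 3 differed by less. Tmem126b, its membrane protein, had a log2 fold change of -0.43 (-0.72 to -0.14). Ndufaf1, a chaperone of MCIA, had -0.31 (-0.57 to -0.05), and Acad9, a relative of the acyl-CoA dehydrogenases of fatty acid oxidation, had -0.29 (-0.46 to -0.13). None of these 3 reached 1.5-fold. Tmem186, an MCIA protein that is not among the 43 factors, had 0.18 (-0.01 to 0.38). Foxred1, an FAD-dependent oxidoreductase of the middle and late steps of assembly (chr9:35204206-35211055, minus strand), had 525.7, 546.8 and 509.3 normalized counts in WT and 302.7, 340.6 and 346.6 in Setd5+/-. It was called lower at -0.68 (-0.84 to -0.51).

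The 6 tested factors of the ubiquinone-binding module of complex I moved in both directions. Ndufaf4 and Ndufaf3 are partners that act together on this module, and they stood on opposite sides. Ndufaf4 (chr4:24898083-24905001, plus strand) had 369.0, 378.1 and 381.8 normalized counts in WT and 236.0, 226.3 and 206.1 in Setd5+/-, a log2 fold change of -0.76 (-0.95 to -0.56). Ndufaf3 (chr9:108565537-108567434, minus strand) had 131.8, 102.6 and 102.7 in WT and 157.3, 206.0 and 169.2 in Setd5+/-, a log2 fold change of 0.66 (0.39 to 0.93). Neither partner's genotypes overlapped, and the higher value of Ndufaf3 fell to 0.54, under 1.5-fold, without the second Setd5+/- sample. Here and below, a sample left out is part of the same library as the others of its genotype, so such changes show counting error. Ndufaf8, which stabilises the hydroxylase NDUFAF5 (chr11:120098928-120100705, plus strand), had 70.5, 83.6 and 79.5 normalized counts in WT and 34.6, 41.7 and 52.4 in Setd5+/-. Its log2 fold change was -0.86 (-1.31 to -0.42), with the widest interval of the factors called lower, since it rests on 282 reads in WT and 108 in Setd5+/-. Ndufaf5, which hydroxylates an arginine of the subunit NDUFS7, was lower in the same direction at -0.55 (-0.84 to -0.25) but was not called. The arginine methyltransferase Ndufaf7 had -0.26 (-0.52 to -0.00) and Ndufaf6, an early factor, -0.03 (-0.44 to 0.39). Ndufaf2, a paralogue of the subunit NDUFA12 that guides the late peripheral arm (chr13:108002715-108158623, minus strand), had 92.9, 114.2 and 125.9 normalized counts in WT and 72.7, 66.7 and 50 in Setd5+/-. It was called lower at -0.81 (-1.18 to -0.44). The last factor of complex I, Nubpl, which delivers iron-sulfur clusters, had a mean of 9.78 normalized counts and was not tested.

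Of the 4 factors of complex II, Sdhaf1 and Sdhaf2 had intervals below 0 and Sdhaf4 above it. Sdhaf1, a LYR-motif protein that helps to insert iron-sulfur clusters into SDHB (chr7:30321406-30323895, minus strand), had 252.9, 292.0 and 299.0 normalized counts in WT and 135.9, 135.8 and 152.5 in Setd5+/-. It had the lowest log2 fold change of all factors, -0.99 (-1.23 to -0.74), or 50.3% of the WT level. A limit applies to this gene, since 69.6% of its exon bases are shared with E130208F15Rik on the other strand, itself at -1.11. Nothing in the sources used here shows that strand was kept in counting. Reads of the shared bases therefore cannot be assigned to either gene. Sdhaf3, the second factor of SDHB, had -0.23 (-0.64 to 0.18). Of the factors that serve the flavoprotein SDHA, Sdhaf2, which promotes attachment of FAD, had -0.43 (-0.62 to -0.23). Sdhaf4, which binds flavinylated SDHA (chr1:23995939-24005656, minus strand), had 155.9, 150.6 and 143.3 normalized counts in WT and 159.7, 202.4 and 208.5 in Setd5+/-. All Setd5+/- values were higher, at a log2 fold change of 0.33 (0.09 to 0.58), and the gene was not called.

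No factor of complex III was called. Uqcc2, needed for synthesis of cytochrome b (chr17:27122663-27133916, minus strand), was the lowest, with 102.0, 145.6 and 127.5 normalized counts in WT and 71.5, 100.0 and 81.0 in Setd5+/-. Its log2 fold change was -0.56 (-0.89 to -0.24), just inside 1.5-fold. Its partner Uqcc1 had -0.11 (-0.32 to 0.10) and Uqcc3, which also handles cytochrome b, had 0.03 (-0.24 to 0.31). The 3 factors of the Rieske iron-sulfur protein were near or above 0. Ttc19, which clears fragments of that protein (chr11:62281473-62328451, plus strand), was the highest, with 364.9, 339.2 and 308.1 normalized counts in WT and 382.6, 369.2 and 452.7 in Setd5+/-, a log2 fold change of 0.25 (0.08 to 0.42). Lyrm7, which holds the Rieske protein in the matrix, had 0.10 (-0.33 to 0.53). Bcs1l, the AAA ATPase that carries it across the inner membrane, had -0.02 (-0.26 to 0.22).

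Within complex IV 5 of the 6 copper factors had intervals below 0, as did 1 of the 3 factors of heme A. Copper reaches the CuA site of COX2 through SCO1, SCO2 and COA6, and the CuB site of COX1 through COX11. Coa6 (chr8:126422515-126425433, plus strand) had 119.4, 134.0 and 88.6 normalized counts in WT and 69.1, 56.0 and 52.4 in Setd5+/-, a log2 fold change of -0.92 (-1.30 to -0.55), the lowest of complex IV. Sco1 (chr11:67052670-67067070, plus strand) had 162.5, 141.5 and 153.2 in WT and 102.5, 76.2 and 103.6 in Setd5+/-, at -0.70 (-1.01 to -0.40). The genotypes of both genes were apart, although Sco1 came to -0.56, and lost its call, without the second Setd5+/- sample. Of the remaining copper factors, Cox11 had -0.51 (-0.87 to -0.15), Sco2 had -0.49 (-0.70 to -0.28) and Cox19, which works with COX11, had -0.46 (-0.69 to -0.24). Their intervals lay below 0 and none reached 1.5-fold. A limit applies to Sco2 and Cox11, which share exon bases with other genes, as given below. Cox17, the copper chaperone upstream of SCO1 and COX11, was the only copper factor above 0, at 0.21 (-0.01 to 0.43).

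Both factors that bind newly made COX1 were lower in Setd5+/- NSCs. Coa3 (chr11:101277968-101279114, minus strand) had 352.4, 340.9 and 344.5 normalized counts in WT and 177.6, 223.9 and 259.7 in Setd5+/-. It was called lower at -0.67 (-0.87 to -0.46), which became -0.52 without the first Setd5+/- sample. Its partner Cox14 had -0.36 (-0.52 to -0.19) and was not called. For COX2, Cox18, the insertase of its C-terminal tail (chr5:90214724-90224001, minus strand), had 150.1, 137.3 and 141.6 normalized counts in WT and 78.7, 100.0 and 108.4 in Setd5+/-. It stood on the threshold at -0.59 (-0.89 to -0.28) and lost its call in 4 alternatives, among them leaving out the first WT sample (-0.55) or the first Setd5+/- sample (-0.45). Cox16, which joins COX2 to the COX1 module, had -0.41 (-0.64 to -0.17). Cox20, the chaperone of COX2 (chr1:178319130-178322693, plus strand), was the highest of complex IV, with 394.7, 360.7 and 338.7 normalized counts in WT and 451.7, 478.7 and 372.9 in Setd5+/-. Here the genotypes overlapped, at a log2 fold change of 0.25 (0.09 to 0.41), and 91.1% of its exon bases are shared with the abundant Hnrnpu on the other strand, itself at 0.15.

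Of the heme A factors, Cox10, which makes heme O, was lower at -0.40 (-0.60 to -0.19), but Cox15, which turns heme O into heme A, was at 0.01 (-0.14 to 0.16). Surf1, which acts where heme A enters COX1, had -0.01 (-0.21 to 0.19). The intervals of Coa5 (-0.14 to 0.05), Coa7 (-0.39 to 0.23) and Pet100 (-0.36 to 0.30), all needed at other points of complex IV assembly, held 0.

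No factor of complex V was called. Atpaf2, which binds the free alpha subunit of the F1 head (chr11:60400626-60418457, minus strand), had 188.2, 167.9 and 181.4 normalized counts in WT and 132.3, 200.1 and 141.8 in Setd5+/-. Its log2 fold change was -0.20 (-0.45 to 0.05), and the second Setd5+/- sample lay above all WT samples. Atpaf1, which binds the free beta subunit, had -0.09 (-0.53 to 0.35). Tmem70, which promotes incorporation of the c subunit (chr1:16665207-16678275, plus strand), had 365.7, 379.7 and 337.9 normalized counts in WT and 380.2, 340.6 and 401.4 in Setd5+/-, at 0.05 (-0.12 to 0.22). The intervals of all 3 held 0.

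Chromosome 1 as a whole was higher in Setd5+/- NSCs, and 5 of the factors are encoded there. The median log2 fold change of its 1044 tested genes was 0.53, while the medians of the other 19 chromosomes (autosomes and X) lay between -0.16 and 0.02. The 5 factors were Sdhaf4 (0.33), Cox20 (0.25), Tmem70 (0.05), Bcs1l (-0.02) and Coa5 (-0.05). All 5 were above the median of the factors as a group and below the median of their chromosome, with differences from the latter of -0.20 for Sdhaf4, -0.28 for Cox20, -0.48 for Tmem70, -0.55 for Bcs1l and -0.58 for Coa5. Without them, the median of the remaining 37 factors was -0.40, and the same 10 and 1 calls were made, because no factor of chromosome 1 had been called. The medians without them were -0.43 over 3 factors of complex II and 0.03 over 5 of complex III. Those of complexes IV and V were -0.41 over 15 factors and -0.15 over 2. Complex I had no factor on chromosome 1.

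Promoter sequences are shown for the factors with the lowest values of complexes I and II (Ecsit and Sdhaf1), for Ndufaf8, and for the partners Ndufaf4 and Ndufaf3, which stood on opposite sides. Each is the RefSeq window (GRCm38.p6) from 250 bases before to 50 after the annotated start, written along the gene's strand, and a window was found for 37 of the 43 factors. Letters of 6 motifs were searched on both strands, and those of 4 are in capitals, namely CCGGAAG (ETS family), GCGCATGCG (NRF1, a regulator of nuclear respiratory genes), AAGATGGCG (YY1) and TGACGTCA (CRE). CCAAT (the CCAAT box) and TGATGNAA (ATF4) were searched as well and are not marked. The windows are chr7:30322326-30322625 (minus) for Sdhaf1, chr9:22085378-22085677 (minus) for Ecsit, chr11:120098684-120098983 (plus) for Ndufaf8, chr4:24897833-24898132 (plus) for Ndufaf4 and chr9:108567387-108567686 (minus) for Ndufaf3. The Sdhaf1 window lies inside the gene span given above (chr7:30321406-30323895), so its RefSeq start is not the start of that span.
Sdhaf1: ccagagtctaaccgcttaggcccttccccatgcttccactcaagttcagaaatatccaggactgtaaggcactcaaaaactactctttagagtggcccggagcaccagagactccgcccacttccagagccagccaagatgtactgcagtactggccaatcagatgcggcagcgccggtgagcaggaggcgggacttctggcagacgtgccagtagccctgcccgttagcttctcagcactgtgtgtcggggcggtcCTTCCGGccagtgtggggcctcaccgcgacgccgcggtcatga
Ecsit: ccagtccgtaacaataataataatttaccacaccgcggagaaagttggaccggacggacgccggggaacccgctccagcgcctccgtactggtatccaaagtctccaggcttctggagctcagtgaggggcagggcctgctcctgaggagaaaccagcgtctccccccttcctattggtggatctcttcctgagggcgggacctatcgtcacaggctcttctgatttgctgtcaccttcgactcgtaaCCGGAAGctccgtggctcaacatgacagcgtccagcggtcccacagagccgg
Ndufaf8: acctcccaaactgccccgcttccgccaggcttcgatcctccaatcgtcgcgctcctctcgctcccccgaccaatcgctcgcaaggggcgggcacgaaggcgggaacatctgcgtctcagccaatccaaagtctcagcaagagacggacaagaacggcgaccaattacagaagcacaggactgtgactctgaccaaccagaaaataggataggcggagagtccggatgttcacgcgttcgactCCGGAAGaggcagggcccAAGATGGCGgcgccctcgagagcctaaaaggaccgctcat
Ndufaf4: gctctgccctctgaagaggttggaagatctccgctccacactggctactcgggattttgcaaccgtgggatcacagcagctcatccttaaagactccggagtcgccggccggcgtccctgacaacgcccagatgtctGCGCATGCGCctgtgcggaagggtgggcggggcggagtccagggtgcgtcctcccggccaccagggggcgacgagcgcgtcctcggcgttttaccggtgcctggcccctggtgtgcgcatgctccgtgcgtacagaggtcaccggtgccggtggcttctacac
Ndufaf3: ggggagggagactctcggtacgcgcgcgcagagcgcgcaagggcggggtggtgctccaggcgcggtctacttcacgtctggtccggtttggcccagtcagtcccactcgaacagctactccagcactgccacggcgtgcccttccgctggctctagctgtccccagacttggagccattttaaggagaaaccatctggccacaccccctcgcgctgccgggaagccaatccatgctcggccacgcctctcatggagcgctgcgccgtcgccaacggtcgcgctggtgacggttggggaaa
The capitals mark ETS letters in Sdhaf1 (on the opposite strand, as CTTCCGG) and Ecsit, ETS and YY1 letters in Ndufaf8, and NRF1 letters in Ndufaf4, which there overlap on both strands. The window of Ndufaf3 held none of these 4 motifs. A CCAAT box was in the windows of Ndufaf3, Sdhaf1, Ecsit and Ndufaf8, and not in that of Ndufaf4.

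CCAAT was the most frequent motif, in 19 of the 37 factor windows (51.4%, against 43.2% of tested genes), and the ATF4 letters were in 0 (against 2.62%). ETS letters were in 15 of the 37 factor windows (40.5%), against 19.7% of the 10199 tested genes that had a window and 9.93% of all 27025 genes with one. The NRF1 letters were in 3 factor windows (8.11%, against 4.2% of tested genes), those of YY1 in 4 (10.8%, against 3.5%) and those of CRE in 4 (10.8%, against 3.72%). Among the 15 factors with ETS letters, 4 were called lower and the median log2 fold change was -0.36 (range -0.99 to 0.25). Among the 21 tested factors without them, 4 were called lower and the median was -0.26 (-0.81 to 0.66). The share called lower over all genes tested was 14.7%. Groups this small cannot show whether the letters go with the change, which was not tested.

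The nuclear-encoded subunits of the same complexes were also lower, and by more than the factors in complexes II to V. Over 76 tested subunits of the 5 complexes the median log2 fold change was -0.59. Of these, 38 were called lower (50%, against 14.7% of all genes tested) and 0 higher (against 18.5%). By complex, the medians of subunits and factors were -0.47 and -0.49 in complex I, -0.62 and -0.33 in complex II, -0.77 and 0.01 in complex III, -0.66 and -0.40 in complex IV, and -0.65 and -0.09 in complex V. In complex III, 5 of 9 subunits were called lower, among them Uqcrfs1 (-1.02) and Cyc1 (-0.90), and 0 of 6 factors. In complex V, 10 of 16 subunits were called lower, among them Atp5g3 (-1.18) and Atp5a1 (-0.96), and 0 of 3 factors. The 0 of 6 and 0 of 3 factors are too few to be told from the 14.7% over all genes. The 11 tested genes of mitochondrial DNA had a median of 0.07, and none was called. Among them, mt-Co2, mt-Co3, mt-Atp6 and mt-Atp8 had means of at most 37.7 normalized counts in either genotype. Their intervals were wide, as for mt-Co3 (-0.89 to 1.12), so the lack of a call says little of them. The remaining tested genes had means of at least 7604, with log2 fold changes from -0.20 (mt-Nd5) to 0.30 (mt-Cytb). These are descriptions of the lists, and the difference between factors and subunits was not tested. Sharing of reads with other genes, given below for the factors, was not searched for the subunits.

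**Figure D3:**
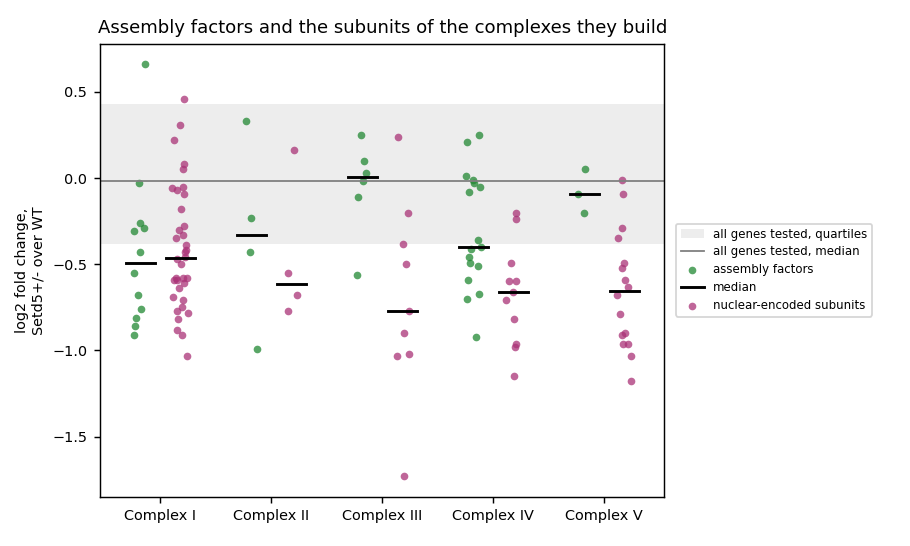
Log2 fold change (Setd5+/- over WT) of the tested assembly factors (green) and nuclear-encoded subunits (purple) of each complex, with black bars at the medians and a grey band over the quartiles of all genes tested (-0.38 to 0.43). The black bars of factors and subunits nearly meet in complex I and are farthest apart in complex III, where the factors centre on 0.01 and the subunits on -0.77.

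Assembly factors were next set beside the subunit that each acts on. The widest gap was at the Rieske protein of complex III. Uqcrfs1, which encodes it, had a mean of 2003 normalized counts in WT and 984.8 in Setd5+/-, while the 3 factors that handle the protein were near or above 0. The difference of log2 fold changes, factor minus client, was 1.00 for Bcs1l (interval 0.75 to 1.26), 1.13 for Lyrm7 (0.69 to 1.56) and 1.27 for Ttc19 (1.08 to 1.46). Bcs1l is encoded on chromosome 1, where the median was 0.53, while Lyrm7 and Ttc19 are not. A gap of the same sign was found at the F1 head, where Atpaf2 differed from its client Atp5a1 by 0.76 (0.51 to 1.02). Atpaf1 and its client Atp5b differed by -0.00 (-0.44 to 0.44).

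In complexes I and II, factor and client were close in some pairs and apart in others. Ndufaf2 and its paralogue Ndufa12, which takes its place, had log2 fold changes of -0.81 and -0.88, a difference of 0.07 (-0.74 to 0.87) that is imprecise because Ndufa12 had a mean of 29.0 normalized counts in WT and 17.1 in Setd5+/-. Ndufaf5 and Ndufs7 differed by -0.09 (-0.42 to 0.24). Sdhaf1 was below Sdhb by -0.43 (-0.69 to -0.17), and Sdhaf2 was below Sdha by -0.59 (-0.79 to -0.38). The intervals of Sdhaf3 against Sdhb (-0.10 to 0.74) and of Sdhaf4 against Sdha (-0.08 to 0.42) held 0.

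Where the client is encoded in mitochondrial DNA, 4 of 6 factors were lower than it beyond the counting error. mt-Co1 had a log2 fold change of 0.14, and Coa3 was below it by -0.80 (-1.0 to -0.60), Cox14 by -0.49 (-0.66 to -0.33) and Surf1 by -0.15 (-0.35 to 0.05). mt-Cytb had 0.30, with Uqcc2 below it by -0.87 (-1.20 to -0.54), Uqcc1 by -0.42 (-0.62 to -0.21) and Uqcc3 by -0.27 (-0.55 to 0.01). The intervals of Surf1 and Uqcc3 held 0. mt-Co2, the client of COX18, COX20, SCO1 and SCO2, was listed at means of 16 and 17.5 normalized counts, far under mt-Co1 at 115272 and 126633, so it was not used as a partner.

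**Figure D4:**
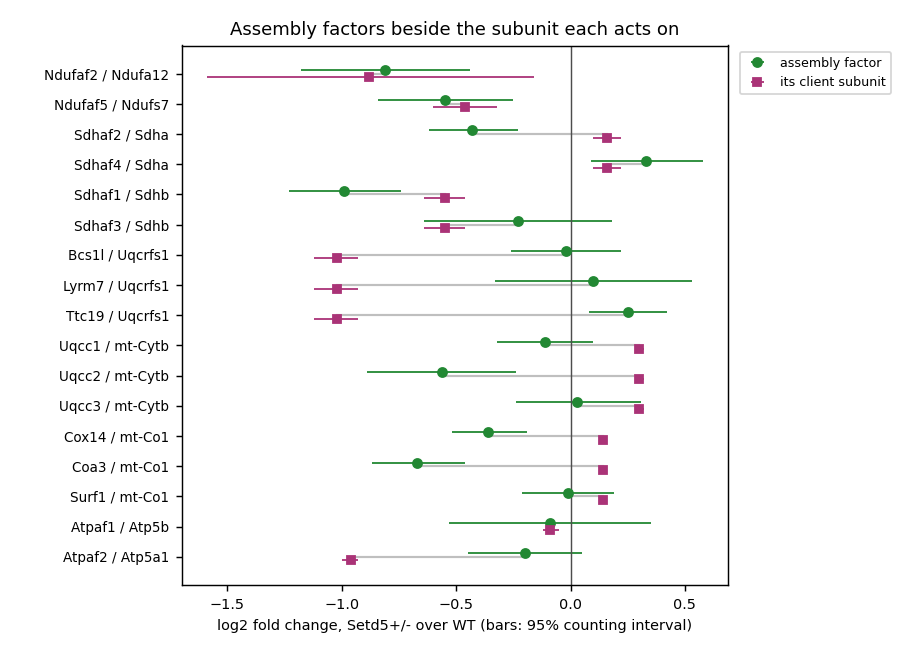
Log2 fold change (Setd5+/- over WT) of assembly factors (green circles) and of the subunit each acts on (purple squares), 1 pair per row, with 95% counting intervals and a grey line that joins the pair. The longest lines are those of Ttc19, Lyrm7 and Bcs1l with Uqcrfs1, where the square lies at -1.02 and the circles near or above 0.

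Assembly factors that were not among the 43 members were taken from a separate list of 25 symbols, of which 21 were tested. Of these, 2 were called lower (9.52%, against 14.7% of all genes tested) and 2 higher (9.52%, against 18.5%), and their median on the log2 scale was -0.15. Those called lower were Fmc1, a factor of the F1 head (-1.05), and Higd2a, of the supercomplexes of the chain (-0.71). Those called higher were Smim20, which acts with COX14 and COA3 on COX1 (0.99), and Tmem177, which works with COX20 on COX2 and is encoded on chromosome 1 (0.59). The handling of new COX1 held a factor called lower, Coa3, and a factor called higher, Smim20.

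Per kilobase of exon, the factors were less abundant than the subunits. The median level was 83.5 normalized counts per kb for the factors and 336.8 for the subunits in WT, and 56.9 and 256.3 in Setd5+/-, against 57.9 and 58.7 for all genes tested. Levels per kb ranged over the tested factors in WT from 10.6 for Lyrm7 to 614.8 for Cox14. Cox14, Cox20 (413.0) and Coa3 (390.4) were the 3 highest factors in WT, and in Setd5+/- their levels per kb were 479.5, 492.0 and 248.7. Across the 42 tested factors, the log2 fold change had a Spearman rank correlation of -0.07 with the WT level per kb and of 0.10 with exon length, given as a description, since the factors share both libraries.

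Reads of some factors cannot be told apart from those of other genes. At least 25% of the exon bases were shared with another gene in 7 factors, namely Cox20, Sdhaf1, Sco2, Ndufaf2, Cox16, Pet100 and Cox11. Of those, Sdhaf1 and Ndufaf2 had been called lower, and the noncoding gene that overlaps Ndufaf2, B230220B15Rik, was listed at 0 in both genotypes. Sco2 shared 68.3% with Tymp (-0.55) and Cox16 shared 56.8% with Gm20498 (-0.33), both on the same strand, so no strand setting parts them. On the other strand, Sco2 shared 66.2% with Ncaph2 (-0.16), Cox11 48.3% with Tom1l1 (-0.33) and Pet100 52.6% with Pcp2 (0.47). Overlaps on the other strand, those of Sdhaf1 and Cox20 included, could not be parted here either, as nothing shows that strand was kept. Ecsit shared 24.0% with Gm16845, itself at -0.57. Without the 7 factors, 8 of 35 were called lower and the median log2 fold change was -0.26. Near-identical intronless copies (at least 90% identity over 100 coding bases) were found for Acad9, Atpaf1, Cox11, Cox20, Nubpl and Uqcc2. When the reads of the copies were added, Nubpl changed most, from 0.11 to 0.92 (0.52 to 1.33), because its copy Gm7514 had a mean of 35.9 normalized counts in WT and 75.8 in Setd5+/-. Uqcc2 went from -0.56 to -0.52 with its copy, Cox11 from -0.51 to -0.57, Atpaf1 from -0.09 to -0.05, Acad9 from -0.29 to -0.30 and Cox20 from 0.25 to 0.24. The copies of Atpaf1 and Uqcc2 also had higher levels than the genes. Gm14117 had means of 79 in WT and 77.8 in Setd5+/-, against 56.3 and 52.4 for Atpaf1. Gm7436 had 368 and 259, against 125.0 and 84.2 for Uqcc2.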

How the data were processed

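RNA-seq of WT and Setd5+/- NSCs at 21% O2 was analysed, with 3 labelled samples each. Per the labels and methods, libraries were prepared with TruSeq RNA v2 from total RNA and sequenced as read pairs, reads were trimmed with Trimmomatic and aligned to mm10 with Bowtie2, and counts were normalized with DESeq2. The program that counted reads and its strand setting are not given in the sources used here. Bowtie2 does not split reads over introns, so reads over exon junctions may be lost or placed on intronless copies. The normalized counts that the authors deposited had lost their decimal points, as had the mean of all samples. The table also held the authors' own comparison (log2 fold change, its standard error, test statistic, p-value and adjusted p-value), which was not used.

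Decimal points were restored by placing them where a value was a whole number of reads, 1 read being worth 0.827 to 0.829 normalized counts in WT and 1.19 in Setd5+/-. Of 52438 genes with values, 39521 had a single placement 12875 were settled by the deposited mean and 42 by that mean together with the decimals. On simulated data 100% of values were recovered. The simulation used even read counts, the same estimated value of 1 read and the same rule for losing points. It therefore did not test the estimate of the value of 1 read.

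Log2 fold changes are differences of the mean log2(normalized count + 1), Setd5+/- minus WT, over genes with a mean of at least 10, and understate changes of low genes. Their 95% counting intervals used the variance over mean of 1.93 seen within genotypes, as when both reads of a pair are counted (2208 genes held 2 reads and 536 held 1 in the first WT sample). With 1 sample per genotype the test planned for replicates was not run. Intervals cover counting error only. Positions, exon lengths and overlaps are from GENCODE M21 (GRCm38), promoters from RefSeq (GRCm38.p6), and intronless copies were found with blastn 2.17.0 among processed pseudogenes. Python 3.11.15, numpy 2.4.6, pandas 2.3.3 and scipy 1.17.1 were used.

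All 43 factors were accounted for. Values per sample were given for factors called and for the lowest and highest factor of each complex. Other genes named were chosen from fixed lists after their values were seen. The members and lists were chosen with earlier results of these data known. Alternatives covered scaling, pseudocount, filter, fold, each sample left out, factors on chromosome 1, and factors with a named pseudogene. Sharing of reads with overlapping genes and with copies was added after seeing the data, as was the pair of Uqcc3 and mt-Cytb.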

Additional observations from a re-analysis of the deposited data

How the results depend on the processing

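Over 19 alternatives, the median log2 fold change of the factors stayed below 0, between -0.40 and -0.26, and the count called lower lay between 8 and 12 apart from changes of the fold itself. At 2-fold, 0 factors were called lower and 0 higher, and at 1.2-fold 22 were called lower and 2 higher. With each sample left out in turn, 8 to 12 were called lower and 0 to 1 higher, the 0 arising without the second Setd5+/- sample, where Ndufaf3 came to 0.54. Leaving out a sample drops part of the reads of the same library, so this range shows counting error and not variation between replicates. With intronless copies added, an alternative chosen after seeing the data, 2 were called higher, through Nubpl. Cox18 lost its call in 4 alternatives and Coa3, Sco1 and Ndufaf3 each in 1. The medians of complexes I, II and IV stayed below 0 in every alternative, while those of complexes III (0.01) and V (-0.09) took both signs, from -0.08 to 0.12 and from -0.25 to 0.06. No paired analysis was possible because the samples of a genotype are parts of 1 library and no test was run.

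Depth limits the factors of low level, such as Nubpl, Atpaf1 and Lyrm7, with counting intervals of -0.92 to 1.14, -0.53 to 0.35 and -0.33 to 0.53. How far cultures or clones of a genotype differ was not measured here, and the calls compare 2 libraries.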
